A study of Rattus norvegicus with 12 samples.

Results

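Nrep, the neuronal regeneration related protein gene, formerly P311, was described in kidney cortex of diabetic and nondiabetic rats. It was selected for its fall in diabetes. Over both ages this log2 fall was the largest among named genes that passed a limma adjusted p of 0.05, numbered loci left out. By size of fall alone its probe set ranked 2 of 18625 tested over both ages, 7 at 10 weeks and 16 at 20 weeks. Its members were all probe sets that the array annotation assigns to Nrep alone. This gave 1 probe set of the 20832 that name a single gene, which together cover 14212 genes. The values that chose Nrep are the signals of diabetic and nondiabetic rats, so its diabetes difference is given below as a description without a test. Its differences between ages, and the change of the diabetes difference with age, were not used for the choice and were tested.

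Nrep encodes a small, unstable intracellular protein without a recognised enzymatic domain, first found in embryonic and regenerating nerve tissue. In cultured and mouse cells it binds Eif3b, a subunit of translation initiation factor eIF3, and raises translation of the TGF-beta ligand mRNAs. It is also known from myofibroblasts in healing wounds, from vascular smooth muscle and from fibrotic kidney, and it has been linked to retinoic acid signalling. TGF-beta itself acts through a receptor pair and SMAD transcription factors to raise matrix genes, and this pathway is widely studied in the diabetic kidney.

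The study asked whether diabetes that begins before puberty acts on the kidney otherwise than diabetes that begins later. All animals were male rats, described as littermates, and all groups ran for 6 weeks, had pellets implanted 3 days after an injection and were fed without restriction. The 10-week diabetic rats received streptozocin, a beta cell toxin, at 65 mg/kg into a vein at 4 weeks of age and then insulin palmitate pellets. The 10-week nondiabetic rats received vehicle at the same age and then pellets of palmitate vehicle. The 20-week diabetic rats received streptozocin at 65 mg/kg at 14 weeks of age and insulin palmitate pellets, and the 20-week nondiabetic rats received both vehicles. Diabetic rats were held at 350 to 450 mg/dl of blood glucose per the sample labels. Streptozocin, the insulin pellet and diabetes occur in the same rats, so their parts cannot be told apart. Each group had 3 arrays, 12 in all. Which rat each array came from is not labelled, so the p-values refer to the scatter of these samples, which may be technical.

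The deposited values are linear signals scaled to a common level, with a trimmed mean of 500 on every array, so a difference is always set against the rest of the same array. The label of 10-week diabetic replicate 1 names a vehicle pellet. The Gapdh control, whose 3'/5' ratio is a measure of RNA integrity, had ratios that lay between 1.41 and 2.09 and were highest in 20-week nondiabetic replicate 1. The beta-actin 3'/5' ratio lay between 6.3 and 11.37, highest in 20-week diabetic replicate 2, with 11.19 in 20-week nondiabetic replicate 1. Below, 10-week diabetic replicate 1 and 20-week nondiabetic replicate 1 are called the doubted arrays. Without both, the log2 diabetes difference of Nrep over both ages was -2.01, against -1.97 with all arrays. Over the 12 arrays the log2 signal of Nrep had a Pearson r of -0.32 with the Gapdh ratio and of -0.35 with the beta-actin ratio, and within groups these were -0.22 and -0.03. The part of RNA integrity in the values of Nrep was not tested.

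Nrep gave signals of 2369, 1872.7 and 3096.6 on the 10-week diabetic arrays. On the 10-week nondiabetic arrays it gave 10033.9, 9528.6 and 8119. Every diabetic array of this age lay far below every nondiabetic one. On the 20-week diabetic arrays the signals were 1158.4, 1733.2 and 1256.2. On the 20-week nondiabetic arrays they were 4841, 5141.8 and 6540.1. The groups again did not overlap, and no 2 of the 4 groups shared any part of their range.

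**Figure D1:**
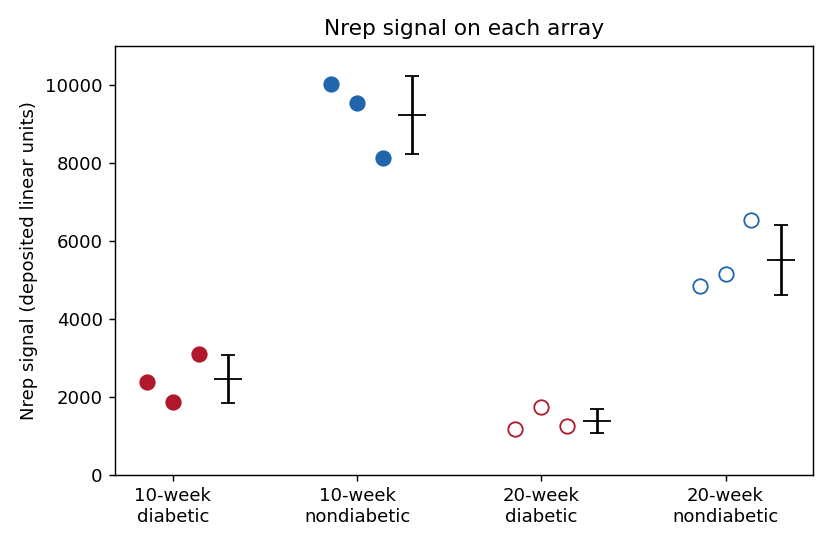
Nrep signal in deposited linear units (vertical axis) on each of the 12 arrays, with points for single arrays and the bar for mean ± SD of 3 arrays (red diabetic, blue nondiabetic, filled 10 weeks, open 20 weeks). Diabetic arrays lie between 1158.4 and 3096.6 and nondiabetic arrays between 4841 and 10033.9.

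The mean signal was 2446 ± 616 in 10-week diabetic rats and 9227 ± 992 in 10-week nondiabetic rats (SD, n = 3 each). It was 1383 ± 308 in 20-week diabetic rats and 5508 ± 907 in 20-week nondiabetic rats (SD, n = 3 each). The order from high to low was therefore 10-week nondiabetic, 20-week nondiabetic, 10-week diabetic and 20-week diabetic. The narrowest gap in this order was between the lowest 10-week diabetic array, at 1872.7, and the highest 20-week diabetic array, at 1733.2, and it was smaller than the SD of either group. The coefficient of variation was 25.2% and 22.2% in the 10-week and 20-week diabetic groups and 10.8% and 16.5% in the nondiabetic groups of these ages. The residual SD of Nrep was 0.28 on the log2 scale, and 0.23 after moderation by eBayes, where the median moderated SD over all probe sets tested was also 0.23.

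On the log2 scale the diabetic minus nondiabetic difference of Nrep was -1.94 ± 0.19 (SE) at 10 weeks, with a 95% interval from -2.35 to -1.53. The signal of diabetic rats at that age was 26.1% of that of nondiabetic rats. At 20 weeks the difference was -2 ± 0.19 (SE), with an interval from -2.41 to -1.60, and diabetic rats had 24.9% of the nondiabetic signal. The mean of both ages, called "over both ages" below, was -1.97 ± 0.13 (SE), 3.92-fold lower in diabetic rats. These values chose the gene and carry no test. Cortex was measured in bulk, so fewer cells that hold Nrep RNA and less of it per cell cannot be told apart.

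The next falls over both ages were taken among named genes, numbered loci left out, that passed a limma adjusted p of 0.05. First came Hao1, the peroxisomal oxidase that makes glyoxylate from glycolate (-1.92 ± 0.25, SE). Klk1c4, of the kallikrein family (-1.84 ± 0.42), and Vwf, the von Willebrand factor of endothelium (-1.78 ± 0.34), followed. They are given as a description only, because this threshold and the order by size of fall chose them. Each had a larger SE than Nrep. Hao1 averaged 239.4 ± 55.5 in 10-week diabetic rats and 591.7 ± 167 in 10-week nondiabetic rats, and 83.61 ± 35.8 in 20-week diabetic rats and 494.6 ± 245 in 20-week nondiabetic rats (SD, n = 3 each). Its log2 diabetes difference was -1.29 ± 0.35 (SE) at 10 weeks and -2.54 ± 0.35 at 20 weeks. That of Klk1c4 was -1.16 ± 0.59 at 10 weeks and -2.52 ± 0.59 at 20 weeks, and that of Vwf was -1.58 ± 0.49 and -1.99 ± 0.49 at these ages.

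Nrep also fell with age. The 20-week diabetic mean of 1383 stood against 2446 in 10-week diabetic rats, and the 20-week nondiabetic mean of 5508 against 9227 in 10-week nondiabetic rats. Over both states the log2 difference, 20 minus 10 weeks, was -0.78, 1.72-fold lower at 20 weeks. An exact permutation test of the ages within diabetic and within nondiabetic arrays gave p = 0.005 (two-sided), the smallest that its 400 arrangements allow. The same mean fitted with limma across all probe sets, an estimate added after the data were seen, had an SE of 0.13 and a Benjamini-Hochberg adjusted p of 0.0241. The Gapdh ratio moved with age too. It was 1.6, 1.68 and 1.75 on the 20-week diabetic arrays, all above the 1.44, 1.5 and 1.44 of the 10-week diabetic arrays. It was 2.09, 1.42 and 1.54 on the 20-week nondiabetic arrays, which overlap the 1.43, 1.46 and 1.41 of the 10-week nondiabetic arrays. With this ratio as a covariate the log2 age difference of Nrep was -0.74 in diabetic rats (limma adjusted p = 0.286) and -0.67 in nondiabetic rats (adjusted p = 0.514). In the limma comparison over both states 112 of 18625 probe sets passed an adjusted p of 0.05, or 0.601%, and 0.376% were lower at 20 weeks.

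Within each state alone the age difference did not pass this threshold. In diabetic rats it was -0.82 ± 0.19 (SE; limma adjusted p = 0.0777), where 123 probe sets, or 0.66%, passed (0.247% higher and 0.413% lower). It passed with arrays centred on their median (adjusted p = 0.0256) and with array weights (adjusted p = 0.0411), and over all alternatives the adjusted p lay between 0.0256 and 0.286. In nondiabetic rats it was -0.75 ± 0.19 (SE; limma adjusted p = 0.4), where 0 of 18625 probe sets passed in limma, 0%, and 1603 had an unadjusted p under 0.05. The unadjusted p of Nrep there was 0.00163, with all 3 arrays of 20 weeks below all 3 of 10 weeks.

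Subtracting the 10-week diabetes difference from the 20-week one gave -0.06 ± 0.27 (SE; limma adjusted p = 0.965), with a 95% interval from -0.64 to 0.51. The diabetes fold at 20 weeks could thus lie up to 1.56-fold beyond that at 10 weeks or up to 1.42-fold short of it within this interval. In limma 0 of 18625 probe sets, 0%, passed in this comparison, and 1480 had an unadjusted p under 0.05. The sign of this small difference turned when 10-week diabetic replicate 3 (0.12), 10-week nondiabetic replicate 3 (0.03), 20-week diabetic replicate 1 (0.05) or 20-week nondiabetic replicate 3 (0.07) was left out.

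The genes whose log2 signal followed Nrep over the 12 arrays were found among 10487 other named genes, by Pearson r. The r exceeded 0.9 for 58 genes and was under -0.9 for 47, with a median of 0.02. All points share the 4 groups, so a gene that differs with diabetes and age in the way Nrep does has a high r by construction, and such values are descriptions. Group means in the same order as Nrep occurred in 750 of 10488 genes, or 7.15%, and in the opposite order in 817, or 7.79%. For 10 of the 10488 genes, Nrep included, all arrays of the 4 groups were also apart in this order: Afg1l, Ahcyl2, Amer2, Atp6v0d1, Chmp3, Clcn6, Fgf13, Nrep, Thap4 and Tmem86a. In the opposite order this held for 3 genes, Cd302 among them.

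The highest r belonged to Rpp25 (0.975), a subunit of the RNA-processing enzymes RNase P and RNase MRP. Clcn6 (0.972), a chloride and proton exchanger of late endosomes, and Amer2 (0.967), a membrane partner of Apc in Wnt signalling, came next. Tdg (0.966), the thymine DNA glycosylase of base excision repair, was followed by Psat1 (0.962), an enzyme of serine synthesis, Fam50a (0.960), a nuclear protein, and Nudt11 (0.959), a phosphohydrolase of diphosphoinositol phosphates. Afg1l (0.958), a mitochondrial ATPase, Manf (0.958), a secreted protein of the endoplasmic reticulum stress response, and Fgf13 (0.956), an intracellular fibroblast growth factor homologue, stood close together. Tmem37 (0.952), a membrane protein related to calcium channel gamma subunits, and Psph (0.951), the last enzyme of serine synthesis, completed the 12. The group means of all 12 were in the order of Nrep.

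Their log2 differences in diabetes over both ages were smaller than that of Nrep and lay between -1.11 in Rpp25 and -0.23 in Fam50a. Rpp25 had 571.7 ± 134 in 10-week diabetic rats and 1170 ± 107 in 10-week nondiabetic rats, and 442.1 ± 112 in 20-week diabetic rats and 976.4 ± 106 in 20-week nondiabetic rats (SD, n = 3 each). Fgf13 had 504.5 ± 43.4 in 10-week diabetic rats and 876.3 ± 22.9 in 10-week nondiabetic rats, and 289.7 ± 60.6 in 20-week diabetic rats and 644.9 ± 17.8 in 20-week nondiabetic rats. In Fgf13, as in Nrep, the arrays of the 4 groups did not overlap. Clcn6 ranged from 1265.9 to 1634.9 in 10-week diabetic rats and from 2429.6 to 2713.2 in 10-week nondiabetic rats. At 20 weeks it ranged from 1123.1 to 1144.2 in diabetic rats and from 1973.9 to 2342.7 in nondiabetic rats. A second, dimmer Clcn6 probe set had an r of 0.59 with Nrep and a log2 diabetes difference over both ages of -0.92 ± 0.47 (SE), against -0.85 ± 0.07 for the first.

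The genes that ran opposite to Nrep were led by Cd302 (-0.986), a C-type lectin receptor, whose Spearman rank correlation with Nrep was -1. Lonp2 (-0.976), a peroxisomal protease, Gpd1 (-0.959), the cytosolic glycerol-3-phosphate dehydrogenase, and Cxcl11 (-0.957), a chemokine that attracts T cells, followed. The list ended with Per1 (-0.954) of the circadian clock, Slc27a2 (-0.946), which activates and takes up long-chain fatty acids, Ints6 (-0.945) of the Integrator complex and Cnn3 (-0.943), a calponin. Cd302 averaged 2390 ± 219 in 10-week diabetic rats and 1589 ± 148 in 10-week nondiabetic rats, and 2930 ± 155 in 20-week diabetic rats and 1916 ± 104 in 20-week nondiabetic rats (SD, n = 3 each). Its groups did not overlap and stood in the reverse order of Nrep. Cxcl11 averaged 1276 ± 176 in 10-week diabetic rats and 538.2 ± 98.7 in 10-week nondiabetic rats, and 1804 ± 142 in 20-week diabetic rats and 670.3 ± 116 in 20-week nondiabetic rats. Other probe sets of Gpd1 and Ints6 had an r of -0.13 and -0.41.

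**Figure D2:**
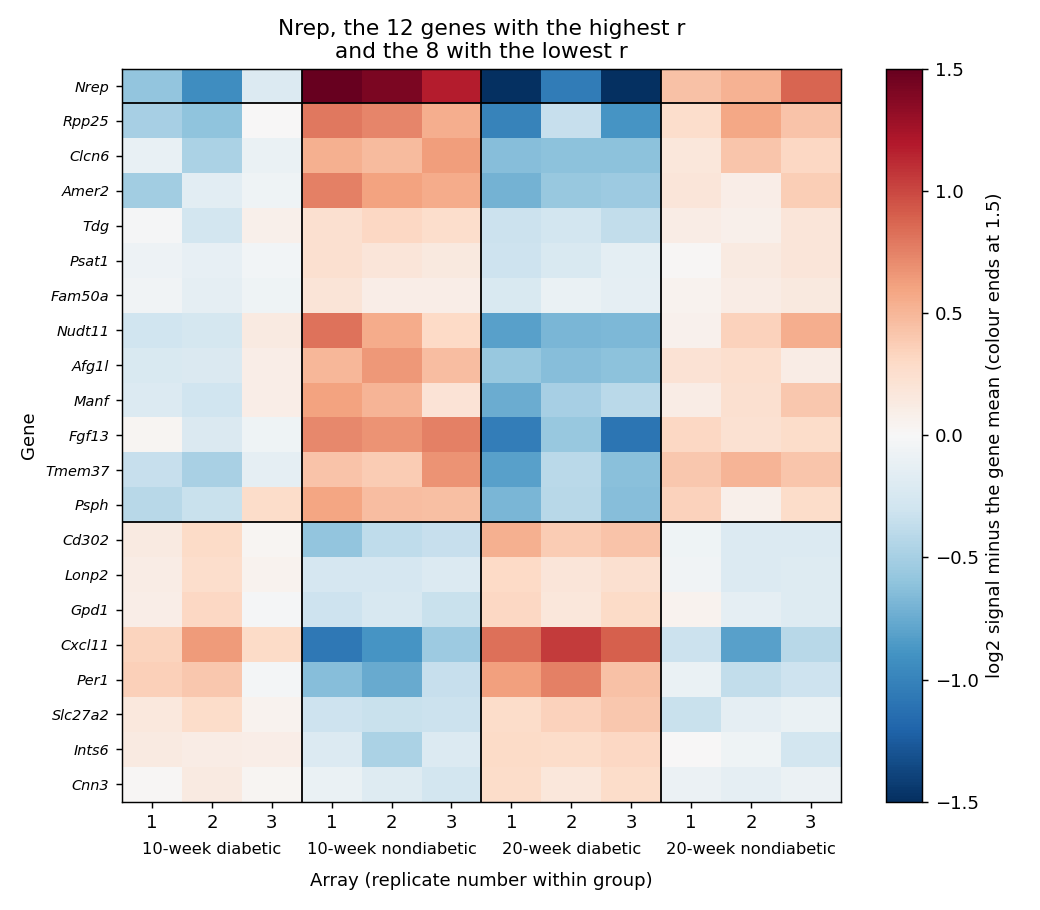
Log2 signal minus the gene's mean over the 12 arrays (colour, ending at 1.5 in either direction) for Nrep, the 12 genes with the highest r and the 8 with the lowest r (rows), on each array (columns, by group). Nrep spans a wider range than the 12 genes below it, whose r lies between 0.951 and 0.975, and the 8 lowest rows, from Cd302 (-0.986) to Cnn3 (-0.943), run the other way.

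Likeness within groups was read from the deviations of each array from its group mean, which hold none of the diabetes or age difference. Among the 12 genes above, this r was highest in Rpp25 (0.86), Fam50a (0.78), Manf (0.78) and Tdg (0.77) and lowest in Afg1l (0.33). Over all genes, 4 exceeded 0.9 and 5 were under -0.9, with a median of 0. The count to be met by chance among so many genes was not worked out, so these r are given as descriptions. The highest were Ccnb1 (0.956), cyclin B1 of the cell cycle, Pomk (0.937), a kinase of dystroglycan glycans, Lpar6 (0.926), a lysophosphatidic acid receptor, C2cd2l (0.910), a lipid transfer protein, Rtkn (0.899) and Hspa5 (0.896), the main chaperone of the endoplasmic reticulum. The lowest were Mrps23 (-0.951), of the mitochondrial ribosome, Sp110 (-0.926), a nuclear body protein, Ndufs3 (-0.912), of respiratory complex I, and Psmc1 (-0.907), of the proteasome.

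These 10 genes were not chosen on group differences. On the probe sets that chose them, 1 passed the test for diabetes over both ages, where 833 of 18625 probe sets, or 4.47%, passed (398 higher, 2.14%, and 435 lower, 2.34%). It was Hspa5, with -0.31 ± 0.08 (SE; limma adjusted p = 0.0383). It lost the call in 12 alternatives, among them each fit without 10-week diabetic replicate 1 or 2, 10-week nondiabetic replicate 1 or 2, 20-week diabetic replicate 1 or 3, or 20-week nondiabetic replicate 2 or 3. A second C2cd2l probe set, with an r of 0.82 over the 12 arrays, gave -0.39 ± 0.06 (SE; limma adjusted p = 0.00318).

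The genes that work beside Nrep were read from 7 lists, with the probe set of highest mean signal standing for a gene. The comparison is diabetes over both ages, with its background of 4.47%, and the median over all probe sets was -0.01. Of all 18625 probe sets tested, 3335 had an unadjusted p under 0.05 in limma in this comparison. Of the TGF-beta ligands, latency proteins and activators, 13 of 14 on the array were bright enough to test, and 0 passed in limma in either direction, with a median of -0.01 (1 at an unadjusted p under 0.05). Tgfb1, the main ligand, was too dim to test, at 20.84 ± 16.8 in 10-week diabetic rats and 71.99 ± 74.7 in 10-week nondiabetic rats, and 65.08 ± 45.5 in 20-week diabetic rats and 37.64 ± 30.8 in 20-week nondiabetic rats (SD, n = 3 each). Tgfb2 gave 0.49 ± 0.27 (SE; limma adjusted p = 0.385). Tgfb3 gave -0.67 ± 0.19 (adjusted p = 0.0677), the smallest p of the list, and Dcn, a matrix proteoglycan that binds the ligands, gave 0.48 ± 0.24 (adjusted p = 0.319).

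Of 16 TGF-beta receptors and SMAD genes, 1 fell and 0 rose, with a median of -0.07. The one was Skil, a repressor of SMAD-driven transcription that TGF-beta itself regulates. Skil averaged 4641 ± 387 in 10-week diabetic rats and 6376 ± 490 in 10-week nondiabetic rats, and 4258 ± 163 in 20-week diabetic rats and 6618 ± 354 in 20-week nondiabetic rats (SD, n = 3 each). No diabetic array reached a nondiabetic one, and unlike Nrep the nondiabetic groups of both ages overlapped. The log2 difference over both ages was -0.55 ± 0.06 (SE; limma adjusted p = 0.000364), and its r with Nrep was 0.92. It also fell at 20 weeks alone, with -0.64 (adjusted p = 0.00207), where 529 probe sets, or 2.84%, passed (1.22% higher and 1.62% lower). At 10 weeks alone 57 probe sets, or 0.306%, passed (0.123% higher and 0.183% lower), and Skil gave -0.46 (adjusted p = 0.0409), a call lost in 16 alternatives, which include leaving out any array other than 10-week diabetic replicate 3 and 10-week nondiabetic replicate 3.

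Of 22 TGF-beta target and matrix genes on the array 18 were tested, 3 rose and 0 fell, with a median of 0.13. Spp1, the secreted phosphoprotein osteopontin, ranged from 4065.6 to 6023.3 in 10-week diabetic rats and from 2313.9 to 2624.5 in 10-week nondiabetic rats. At 20 weeks Spp1 ranged from 9796.5 to 22209.1 in diabetic rats and from 5089.4 to 8209 in nondiabetic rats. The log2 difference was 1.15 ± 0.18 (SE; limma adjusted p = 0.00384), and Spp1 also rose with age, in the direction opposite to Nrep, within diabetic rats (1.74 ± 0.26, adjusted p = 0.0157). The age call of Spp1 was lost without 10-week diabetic replicate 1 or 3, 20-week diabetic replicate 2 or 3, or both doubted arrays, and with the Gapdh ratio as a covariate. Lox, which crosslinks collagen, rose by 0.95 ± 0.20 (adjusted p = 0.0165). Fn1, fibronectin, rose by 0.55 ± 0.12 (adjusted p = 0.0227), a call lost without 10-week diabetic replicate 1, 10-week nondiabetic replicate 2, 20-week diabetic replicate 1 or 20-week diabetic replicate 2.

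All 11 eIF3 subunits on the array were tested and 0 passed in limma, with a median of 0.05 (1 at an unadjusted p under 0.05). Eif3b, the subunit that Nrep binds, averaged 2269 ± 233 in 10-week diabetic rats and 2123 ± 15.8 in 10-week nondiabetic rats, and 2229 ± 183 in 20-week diabetic rats and 2346 ± 120 in 20-week nondiabetic rats (SD, n = 3 each). Its log2 difference over both ages was 0.01 ± 0.06 (SE). The smallest p-values belonged to Eif3j, with 0.11 ± 0.05 (limma adjusted p = 0.275), and Eif3m, with 0.14 ± 0.08 (adjusted p = 0.349).

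Of 21 contractile and myofibroblast genes 17 were tested and 0 passed in limma, with a median of 0.03 (5 at an unadjusted p under 0.05). Acta2, smooth muscle actin, gave -0.25 ± 0.12 (SE; limma adjusted p = 0.288), and Flna, filamin A, gave 0.09 ± 0.07 (adjusted p = 0.538). Tagln, a smooth muscle actin binder, gave 0.81 ± 0.22 (adjusted p = 0.0591), while Smtn, smoothelin, gave -0.44 ± 0.12 (adjusted p = 0.0695). Markers of contractile cells thus lay on both sides of 0 without passing the test.

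Of 23 genes of nerve growth and regeneration on the array only 8 were bright enough to test, with a median of -0.07, and 2 fell. Nefm, a neurofilament subunit, ranged from 127.7 to 261.2 in 10-week diabetic rats and from 470.6 to 555 in 10-week nondiabetic rats. At 20 weeks Nefm ranged from 295.7 to 479.1 in diabetic rats and from 552.1 to 791 in nondiabetic rats. The log2 difference over both ages was -1.26 ± 0.18 (SE; limma adjusted p = 0.00203), with an r of 0.61 with Nrep. Unlike Nrep, Nefm had higher means at 20 than at 10 weeks in both states. Basp1, a membrane protein of growing axons and of podocytes, gave -0.81 ± 0.13 (adjusted p = 0.00416). Its difference was -1.42 at 20 weeks (adjusted p = 0.00221) and -0.20 at 10 weeks (adjusted p = 0.74), while the test of the change between ages gave -1.22 (adjusted p = 0.4).

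Of 20 retinoid receptors, carriers and target genes 18 were tested, 3 rose and 1 fell, with a median of 0.17. Stra6, the membrane receptor that takes up retinol, rose by 1.49 ± 0.27 (SE; limma adjusted p = 0.00787). It ranged from 1083.1 to 2196.1 in 10-week diabetic rats and from 543.7 to 775.7 in 10-week nondiabetic rats. At 20 weeks Stra6 ranged from 1271.2 to 1712.5 in diabetic rats and from 220.7 to 837.5 in nondiabetic rats. Rarres2, the retinoid-responsive chemerin gene, rose by 0.77 ± 0.15 (adjusted p = 0.0136), a call lost without both doubted arrays. Cyp26b1, which degrades retinoic acid, rose by 1.09 ± 0.25 (adjusted p = 0.0259), and Dhrs3, a retinal reductase, fell by 0.27 on the log2 scale (adjusted p = 0.0281). The call of Cyp26b1 was lost in 9 alternatives and that of Dhrs3 in 12, which for both include leaving out 10-week diabetic replicate 1, 10-week nondiabetic replicate 1 or 2, 20-week diabetic replicate 2 or 20-week nondiabetic replicate 1. The call of Cyp26b1 was also lost without 20-week diabetic replicate 3 or 20-week nondiabetic replicate 2, and that of Dhrs3 without 10-week diabetic replicate 3, 10-week nondiabetic replicate 3, 20-week diabetic replicate 1 or 20-week nondiabetic replicate 3.

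Over all 7 lists 10 of the members tested passed over both ages, 4 lower and 6 higher. In the order above, the lists held 13, 16, 18, 11, 17, 8 and 18 tested members. Of all probe sets tested 4.47% passed, 2.34% lower and 2.14% higher. Without both doubted arrays 8 members passed, while the probe sets passing went from 833 to 490.

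**Figure D3:**
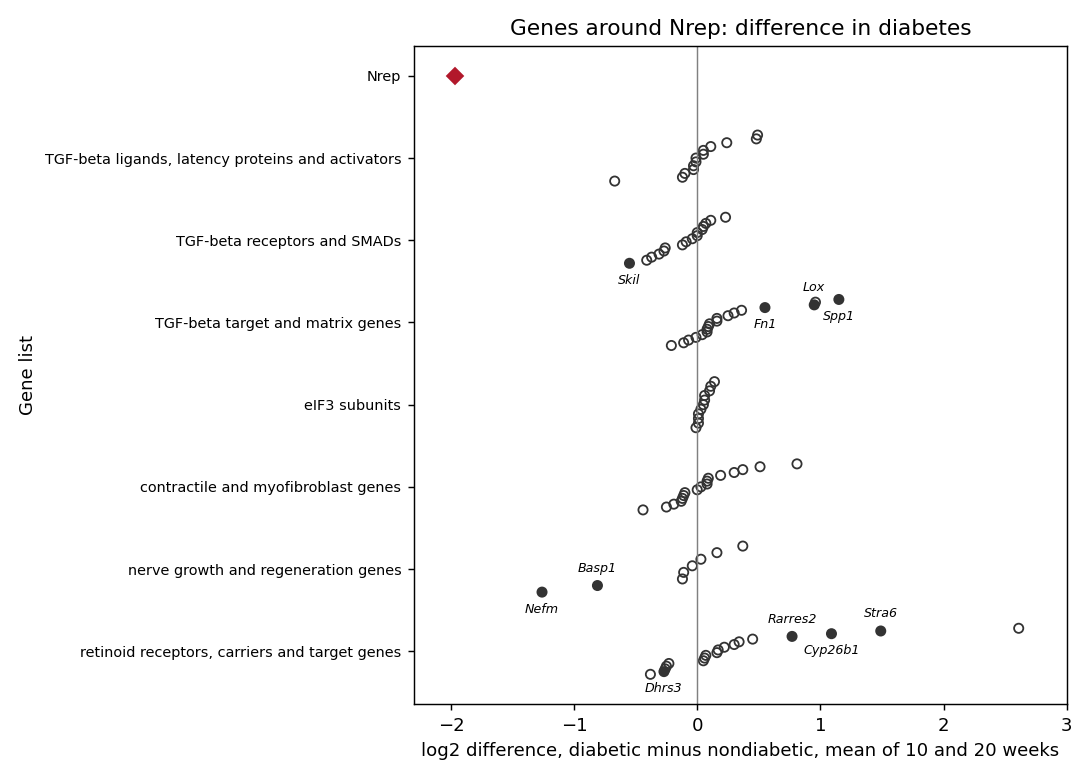
Log2 difference, diabetic minus nondiabetic, mean of both ages (horizontal axis), for Nrep (red) and each tested member of 7 gene lists (rows, one point a gene, filled where the limma adjusted p is under 0.05, with vertical spread for legibility). Nrep lies at -1.97, beyond the lowest list member, Nefm at -1.26, and the eIF3 subunits lie close to 0.

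The neighbours of Nrep in the RefSeq gene order of assembly GRCr8 were used to see whether the fall extended along the chromosome. Of the 5 annotated protein-coding genes on each side, 7 had at least 1 tested probe set, and 0 of these 13 probe sets passed over both ages in limma (2 at an unadjusted p under 0.05, of Tslp and Stard4). Over all 18625 probe sets 4.47% passed and 3335 had an unadjusted p under 0.05, so so few probe sets give counts close to this background. Stard4, next to Nrep and a carrier of cholesterol, had 3 probe sets at 0.33 ± 0.20, -0.29 ± 0.12 and -0.32 ± 0.22 (SE; limma adjusted p from 0.211 to 0.504). Epb41l4a, on the other side and a cytoskeletal protein of the band 4.1 family, gave -0.04 ± 0.07 (adjusted p = 0.828). Tslp, an epithelial cytokine, gave -0.44 ± 0.20 (adjusted p = 0.272). Wdr36, of ribosome assembly, lay between -0.18 and 0.14 on 3 probe sets. Apc, the Wnt regulator, gave -0.02 and -0.16, Srp19, of the signal recognition particle, -0.05, and Reep5, of the endoplasmic reticulum membrane, -0.04 and 0.01. Camk4, a calcium-dependent kinase, was too dim to test, and the 2 numbered loci LOC120098181 and LOC120098309 had no probe set that names them.

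**Figure D4:**
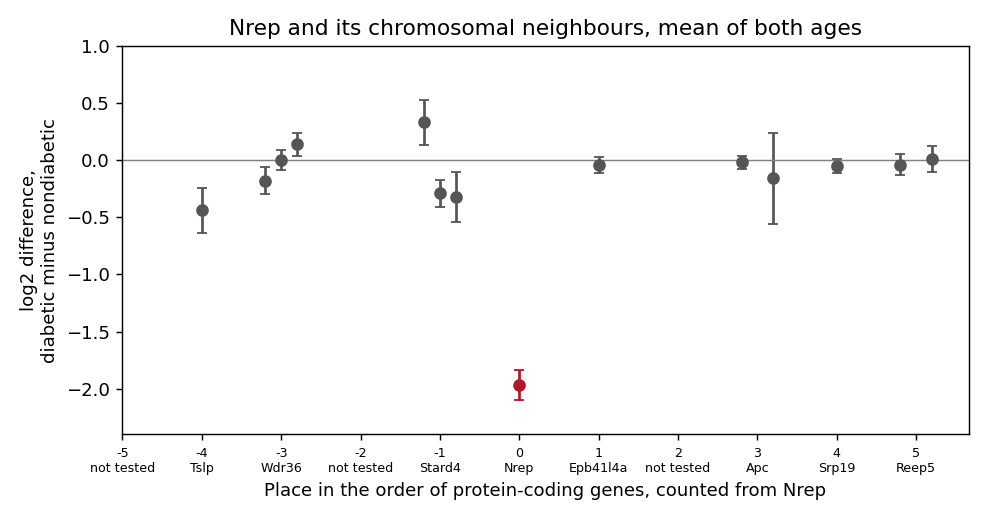
Log2 difference, diabetic minus nondiabetic, mean of both ages (vertical axis), with its SE as bars, for Nrep (red) and the tested probe sets of its neighbours by place in the gene order (horizontal axis). Nrep lies at -1.97, and the neighbours lie between -0.44 in Tslp and 0.33 in Stard4.

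Cell type markers were summed per array as a measure of tissue makeup. The summed signal of 12 proximal tubule markers, all above the filter, was 156300 to 162600 in 10-week diabetic rats and 142900 to 161900 in 10-week nondiabetic rats, and 155400 to 159000 in 20-week diabetic rats and 153500 to 174000 in 20-week nondiabetic rats. The tissue thus carried its labelled cortical markers in every group, and this sum had an r of -0.05 with Nrep over the 12 arrays. The sum of 7 podocyte markers was 6162 to 8893 in 10-week diabetic rats and 7257 to 8976 in 10-week nondiabetic rats, and 6675 to 8385 in 20-week diabetic rats and 7615 to 8471 in 20-week nondiabetic rats (r = 0.36). The endothelial sum of 8 markers was 9842 to 11180 in 10-week diabetic rats and 10180 to 11840 in 10-week nondiabetic rats, and 9340 to 9913 in 20-week diabetic rats and 10460 to 11810 in 20-week nondiabetic rats (r = 0.59). The sum of 11 fibroblast, pericyte and smooth muscle markers was 9783 to 12410 in 10-week diabetic rats and 9685 to 11310 in 10-week nondiabetic rats, and 9696 to 14600 in 20-week diabetic rats and 8891 to 11210 in 20-week nondiabetic rats (r = -0.41). The remaining r were 0.43 for thick ascending limb, 0.18 for collecting duct, 0.04 for distal convoluted tubule, -0.24 for nerve and -0.37 for adrenal markers.

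The lowest r with Nrep among the 12 sums belonged to fat, inner medulla and leukocytes. The leukocyte sum of 11 markers, 3 of them dim, was 16870 to 21580 in 10-week diabetic rats and 15540 to 17660 in 10-week nondiabetic rats, and 18330 to 25600 in 20-week diabetic rats and 12730 to 22550 in 20-week nondiabetic rats (r = -0.56). The fat sum of 7 markers, 4 of them dim, was 737.1 to 1615 in 10-week diabetic rats and 276.1 to 939.5 in 10-week nondiabetic rats, and 1086 to 1966 in 20-week diabetic rats and 612 to 817.6 in 20-week nondiabetic rats (r = -0.76). The inner medulla sum of 6 markers was 1731 to 2400 in 10-week diabetic rats and 1670 to 1831 in 10-week nondiabetic rats, and 2131 to 2837 in 20-week diabetic rats and 1431 to 2157 in 20-week nondiabetic rats (r = -0.74). Of 8 nerve markers 7 were dim, and of 8 adrenal markers 6. Their sum for nerve was 223.7 to 334.7 in 10-week diabetic rats and 228.8 to 487.2 in 10-week nondiabetic rats, and 348.2 to 537 in 20-week diabetic rats and 335 to 401.8 in 20-week nondiabetic rats, so the groups overlapped at 10 and at 20 weeks. Single markers passed the limma test for diabetes over both ages, against its background of 4.47%. Of the 7 podocyte markers 2 fell and 6 were below 0, with a median of -0.28. They were Nphs1, nephrin of the slit diaphragm (-0.48 ± 0.10, SE; adjusted p = 0.0157), whose call was lost without both doubted arrays, and Ptpro, a podocyte phosphatase (-0.40 ± 0.10; adjusted p = 0.0339), whose call was lost in 10 alternatives. Of 9 collecting duct markers 2 fell (Hsd11b2 and Slc26a4) and 1 rose (Aqp2). The call of Hsd11b2 was lost without an intensity trend and without 10-week nondiabetic replicate 1. In the proximal tubule, thick ascending limb and endothelial lists 1 marker each fell (Slc13a3, Cldn10 and Vwf). The calls of Slc13a3 and Cldn10 were lost without an intensity trend, and that of Slc13a3 also without both doubted arrays. In the leukocyte and inner medulla lists 1 each rose (Csf1r, lost in 16 alternatives, and Aqp4). Of 8 leukocyte markers tested 0 were below 0, with a median of 0.33, and of 5 inner medulla markers 2 were, with a median of 0.52. Of 3 fat markers tested 0 were below 0, with a median of 1.78, and 0 passed. The part of tissue makeup in the differences of Nrep was not tested.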

How the data were processed

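Total RNA of rat renal cortex was hybridised as biotin-labelled cRNA in 1 colour. The authors deposited 1 table of linear signals (intensity), made with GCOS per the submitters' processing notes; its version is not given in the sources used here. The 2% trimmed mean was 500 on every array, so no further scaling was applied. Of 31099 probe sets, 57 controls were left out, 424 values below 1 were set to 1, log2 was taken, and the 40% dimmest were left out (geometric mean signal under 70.9), leaving 18625. Gene names came from the platform annotation updated through RefSeq (GRCr8): 20832 probe sets named 1 gene, 436 several and 9831 none here. Correlations between arrays lay between 0.907 and 0.928.

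limma 3.58.1 in R 4.3.3 fitted 4 group means to 12 arrays, with eBayes and an intensity trend, two-sided, Benjamini-Hochberg adjusted over all probe sets tested, threshold 0.05. The fit was tested on simulated data. The number of arrays limits the precision.

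Nrep, the lists and the tests were chosen with earlier results of these data known. Genes named were the 12 highest and 8 lowest by r, the 6 highest and 4 lowest by r within groups, the 3 next falls, 5 neighbours on each side, and of each list the called members or the 2 smallest p-values, with Tgfb1, Tgfb2, Tgfb3, Eif3b, Acta2 and Flna for their role. Dcn, Eif3j and Eif3m entered by this rule. Ahcyl2, Atp6v0d1, Chmp3, Thap4 and Tmem86a were named after their values were seen. Alternatives covered scaling, filter, offset, spread, weights, block, covariate and arrays left out.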

Additional observations from a re-analysis of the deposited data

How the results depend on the processing

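With 3 arrays a group and 1 Nrep probe set, no second reading of the gene was at hand. The log2 diabetes difference of Nrep stayed negative in all 23 alternatives, at -2.13 to -1.76 at 10 weeks, -2.18 to -1.87 at 20 weeks and -2.06 to -1.88 over both ages. The age difference over both states lay between -0.87 and -0.69 (exact permutation p 0.005 to 0.01), and the limma fit gave an adjusted p of 0.0241. In nondiabetic rats it lay between -0.88 and -0.66 (adjusted p 0.182 to 0.775), and in diabetic rats between -0.99 and -0.63, past the threshold with median centring (-0.93) and array weights (-0.86). The change of the diabetes difference with age lay between -0.24 and 0.12 and turned positive without 10-week diabetic replicate 3 (0.12), 10-week nondiabetic replicate 3 (0.03), 20-week diabetic replicate 1 (0.05) or 20-week nondiabetic replicate 3 (0.07). The cause was not tested. Members of the 7 lists passing over both ages numbered 7 to 14, against 10, while all probe sets passing numbered 490 to 876, against 833.

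Probe sets called for diabetes at 10 weeks numbered 57, against 7 without an intensity trend, 10 without both doubted arrays, 9 with only the 2 groups fitted, and 5 to 115 with 1 array left out. At 20 weeks they numbered 529, against 191, 331, 309, and 194 to 520 under the same changes. Over both ages they numbered 833, against 502 without a trend, 490 without both doubted arrays, and 525 to 823 with 1 array left out. For age in diabetic rats they numbered 123, against 62 with quantile normalization, 238 with median centring, 75 without the filter, 5 without a trend, 239 with array weights, 7 with the Gapdh ratio as covariate, 27 without both doubted arrays, and 7 to 118 with 1 array left out. For age in nondiabetic rats the count of 0 became 1 with median centring and 0 to 9 with 1 array left out. For the change between ages it became 3 with the Gapdh covariate and 0 to 2 with 1 array left out. Of the 12 genes with the highest r, 5 were shared with those by Spearman rank correlation, and 8 to 11 with 1 array left out.

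Same-numbered arrays of different groups deviated together with a correlation of -0.15 to 0.15 over 18 pairs, 4 of them over 0.1, so the numbers were not taken to pair the samples. With the replicate number as a block, 32 probe sets passed for diabetes at 10 weeks and 73 for age in diabetic rats. Nrep kept -1.94, -2 and -1.97 for diabetes, -0.75 and -0.82 for age and -0.06 for the change between ages, with no call altered.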

Other observations

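Psat1 and Psph were among the 12 genes that followed Nrep, and the other enzymes of serine and glycine synthesis were then looked up, a list chosen after the values were seen and carrying no test. Psat1 gave a log2 difference of -0.31 ± 0.05 (SE) in diabetes over both ages and Psph -0.74 ± 0.11. Of the others, Phgdh, the first enzyme of serine synthesis, gave -0.55 ± 0.09 and an r of 0.85 with Nrep over the 12 arrays. Shmt1 and Shmt2, which turn serine into glycine, gave 0.13 ± 0.07 and -0.01 ± 0.08.

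Manf and Hspa5 led to chaperones of the endoplasmic reticulum in the same way, again without a test. Sdf2l1 gave -0.55 ± 0.14 (SE), Creld2 -0.38 ± 0.11 and Pdia4 -0.35 ± 0.07, while Canx gave 0.06 ± 0.04 and Hyou1 0.37 ± 0.54. Hsp90b1, Pdia3, Pdia6, Dnajc3, Dnajb9 and Calr lay between -0.15 and -0.03. The median of the 13 genes was -0.12, with 11 below 0. These figures include Manf (-0.68 ± 0.10) and Hspa5 (-0.31 ± 0.08), which prompted the list. The r of the 13 genes with Nrep, Manf and Hspa5 included, ran from -0.68 to 0.96. The highest was that of Manf itself, and Pdia4 had 0.86.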
